A study of Mus musculus with 4 samples.

Results

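The 10 genes described here are those of the TEAD module: the TEAD transcription factors *Tead1*, *Tead2*, *Tead3* and *Tead4*, the coactivators *Yap1* and *Wwtr1*, the last of which encodes TAZ, and the target genes *Ccn1* (*Cyr61*), *Ccn2* (*Ctgf*), *Ankrd1* and *Amotl2*. They were listed by name, and the rule that selects them uses no measured value, but the list was chosen with earlier results of these data known. All 10 were found among the 22463 symbols of the RNA-Seq tables, and each is represented by the RefSeq transcript with most reads. The 4 libraries, 1 per condition, came from brown preadipocytes of E18.5 embryos of C57BL/6J background, immortalized by SV40T. All 4 lack *Mll3*. Cells infected with adenoviral GFP (Ad-GFP) keep a floxed *Mll4*, and their samples are labelled WT although their genotype is MLL3-/-. Cells infected with adenoviral Cre (Ad-Cre) are labelled MLL4 KO, genotype MLL3-/-;MLL4-/-. Each was collected 2 days after confluence, before induction (day 0), and again on day 2 of adipogenesis with insulin, T3, indomethacin, dexamethasone and IBMX. MLL3 and MLL4 are histone H3K4 mono- and di-methyltransferases, and the comparison asks which genes change during adipogenesis with and without MLL4. The labels name no clone, and do not say whether the libraries share a culture.

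TEAD proteins bind DNA but activate little by themselves. YAP and TAZ do not bind DNA and are recruited by TEADs, and the Hippo kinases LATS1 and LATS2 phosphorylate YAP and TAZ and keep them out of the nucleus. The module is known for sensing cell density, tension and the actin cytoskeleton, and in mesenchymal precursors TAZ is known as an inhibitor of PPARγ and of adipocyte formation.

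The DNA motif TEADs are known to bind, GGAATG, was looked for on both strands of RefSeq promoter windows of build GRCm38.p6, which hold the 250 bases before and 50 after a start. Windows were given for 7 of the 10 genes, and not for *Tead1*, *Tead4* and *Ccn2*. It was in a window of 6 of the 7, and in none of *Tead2*, beside 14.7% of all 32851 windows and 16.6% of 27025 genes. The 250 bases upstream of 3 target genes are printed because these genes are the readout of the module, 5′ to 3′ on the strand of the gene. Capitals mark the motif, which reads CATTCC where the match is on the other strand.
Ccn1 (chr3:145649986-145650235, minus strand): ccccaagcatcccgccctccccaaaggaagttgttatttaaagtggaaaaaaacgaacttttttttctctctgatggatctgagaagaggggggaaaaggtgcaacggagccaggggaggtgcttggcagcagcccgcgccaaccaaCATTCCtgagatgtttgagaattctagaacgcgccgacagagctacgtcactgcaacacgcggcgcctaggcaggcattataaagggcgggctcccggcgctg
Ankrd1 (chr19:36119845-36120094, minus strand): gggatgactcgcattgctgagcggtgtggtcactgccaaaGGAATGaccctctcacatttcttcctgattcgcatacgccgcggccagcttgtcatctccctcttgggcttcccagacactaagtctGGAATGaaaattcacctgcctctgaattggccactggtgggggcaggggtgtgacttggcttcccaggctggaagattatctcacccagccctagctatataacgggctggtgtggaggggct
Amotl2 (chr9:102717554-102717803, plus strand): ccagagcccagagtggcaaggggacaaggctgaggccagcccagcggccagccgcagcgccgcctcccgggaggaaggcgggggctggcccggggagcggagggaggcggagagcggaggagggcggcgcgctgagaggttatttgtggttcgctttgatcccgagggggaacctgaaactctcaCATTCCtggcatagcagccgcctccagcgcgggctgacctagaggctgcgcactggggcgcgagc
*Ankrd1* held 2 matches, with first bases 210 and 123 bases upstream of the start. The match of *Ccn1* lay 103 bases and that of *Amotl2* 65 bases upstream. The coactivator genes and *Tead3* held the motif as well, shown here on the strand that reads GGAATG. At least 2 matches were in 1.36% of all windows, and besides that of *Ankrd1* in 1 of the windows of *Tead3*, with matches 123 and 114 bases upstream and 3 bases downstream of a start. Another window of *Tead3* held 1 match, which is the one printed, and a further window of it held none.
Yap1 (141 bases upstream): gtctgcaGGAATGtagcgac
Wwtr1 (136 bases upstream of 1 start and 170 of another): actcaaaGGAATGcagatag
Tead3 (182 bases upstream of 1 of its starts): cgagcgaGGAATGgggtgcg
A match is a run of letters and not a measured binding site. The AP-1 motif TGACTCA, searched on both strands and held by 5.20% of all windows, was in no window of the 7 genes.

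*Mll4* itself, listed as *Kmt2d* (NM_001033276), was at 18.49 RPKM (reads per kilobase of exon, scaled by library depth) in Ad-GFP day 0, 18.7 in Ad-GFP day 2, 16.3 in Ad-Cre day 0 and 15.6 in Ad-Cre day 2. These counts run over the whole transcript and cannot show the loss of the floxed exons. Totals of deposited counts ran from 15831915 in Ad-Cre day 2 to 22099995 in Ad-GFP day 2. The Ad-Cre day 2 library stood apart from the others by transcript length. In Ad-Cre over Ad-GFP at day 2, the median log2 RPKM ratio of expressed symbols (RPKM above 1 in Ad-GFP at either day) went from 0.51 in the shortest of 20 length bins to −0.81 in the longest, and from −0.71 in the lowest to 0.68 in the highest of 20 bins of GC content. At day 0 the bins of length spanned 0.26. For ratios that use Ad-Cre day 2, the value with the length and GC trends subtracted is therefore given as well, and called corrected below. This correction was added once the data had been examined. Day 2 over day 0 in Ad-GFP had a GC trend as well, with medians from 0.37 in the lowest bin to −0.10 in the highest. Its ratios are mostly given as deposited, and small ones depend on these trends. With length and GC trends removed, that ratio went from 0.37 to 0.13 for *Tead1* and from 0.51 to 0.24 for *Wwtr1*.

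**Figure D1:**
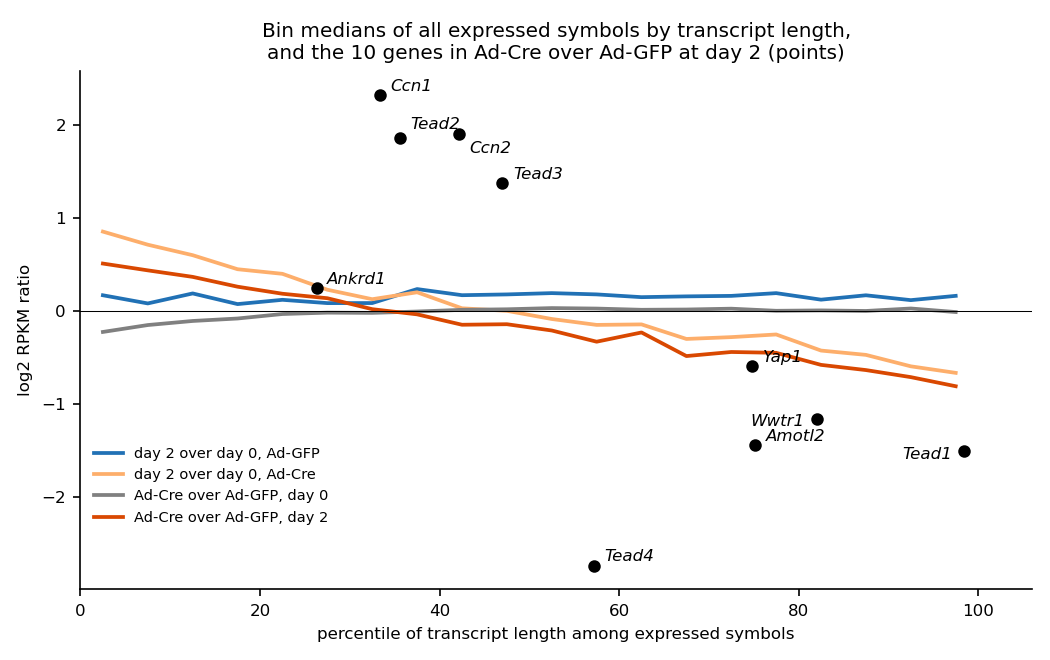
Median log2 RPKM ratio of all expressed symbols in 20 bins of transcript length (lines, 1 per comparison), with the 10 genes as points for Ad-Cre over Ad-GFP at day 2; the horizontal axis is the percentile of transcript length. Lines that use the Ad-Cre day 2 library slope from 0.51 or 0.85 down to −0.81 or −0.67, and *Tead1*, at the 98.5th percentile of length, sits at the far right.

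Of the cell type markers, the 7 of preadipocytes were all above 1 RPKM in Ad-GFP cells at both days, and 5 at day 0 and 6 at day 2 in Ad-Cre cells. Their summed RPKM was 629.6 and 162 in Ad-GFP at day 0 and day 2, and 331 and 141 in Ad-Cre. At day 0, before induction, *Pdgfrb* was at 89.9 RPKM in Ad-GFP and 123 in Ad-Cre, and the other 6 were lower in Ad-Cre. Of these, *Pdgfra* was at 73.6 and 9.72, *Dlk1* at 141 and 10.1, *Cd34* at 11.1 and 0.352 and *Ly6a* at 9.90 and 0.248. At day 2 *Pdgfrb*, *Thy1* and *Cd34* were higher in Ad-Cre and the other 4 lower, with *Cd34* at 2.98 beside 1.46 in Ad-GFP. The 6 adipocyte markers summed to 30.4 and 1999 RPKM in Ad-GFP at day 0 and day 2, and to 15.7 and 490.4 in Ad-Cre. Of 5 brown adipocyte markers only *Prdm16* passed 1 RPKM, in Ad-GFP day 2 alone, while *Cidea* had 0 reads in all 4 libraries and *Ucp1* at most 1, so these libraries do not show the thermogenic genes of mature brown fat. Markers of endothelium, leukocytes (2 of 3 found), skeletal muscle and epithelium were below 1 RPKM in every library. In such bulk libraries, fewer cells of a type and less RNA per cell cannot be told apart.

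No condition has a replicate, and no p-value is given. A gene was called higher or lower past a 2.5-fold ratio of RPKM. Intervals are exact binomial 95% confidence intervals of the read ratio, cover counting error only, and compare these libraries, not the conditions. All 10 genes were expressed. From day 0 to day 2 in Ad-GFP cells, 1 of the 10 rose (*Tead4*) and 4 fell (*Ccn1*, *Ccn2*, *Ankrd1* and *Tead2*), beside 8.38% and 12.7% of 11541 expressed symbols. In Ad-Cre cells none rose and 4 fell (*Ccn1*, *Ccn2*, *Ankrd1* and *Tead1*), beside 8.68% and 10.0%, and 3 fell after the correction, which took out *Tead1*. Between Ad-Cre and Ad-GFP at day 0, *Ccn1* and *Ccn2* were higher and none was lower, beside 1.27% and 4.12%. At day 2, 4 of the 10 were higher in Ad-Cre (*Ccn1*, *Ccn2*, *Tead2* and *Tead3*) and 3 lower (*Tead1*, *Tead4* and *Amotl2*), beside 8.16% and 10.1%. After the correction these were 3 and 2, without *Tead3* and *Tead1*. Calls over all expressed symbols were also fewer after the correction, counted where GC content was known. In Ad-Cre over Ad-GFP they went from 146 and 475 to 118 and 410 at day 0. At day 2 they went from 940 and 1162 to 762 and 601. For day 2 over day 0 in Ad-Cre they went from 1000 and 1156 to 670 and 959. Corrected counts, here and for the lists below, are to be read beside these calls.

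**Figure D2:**
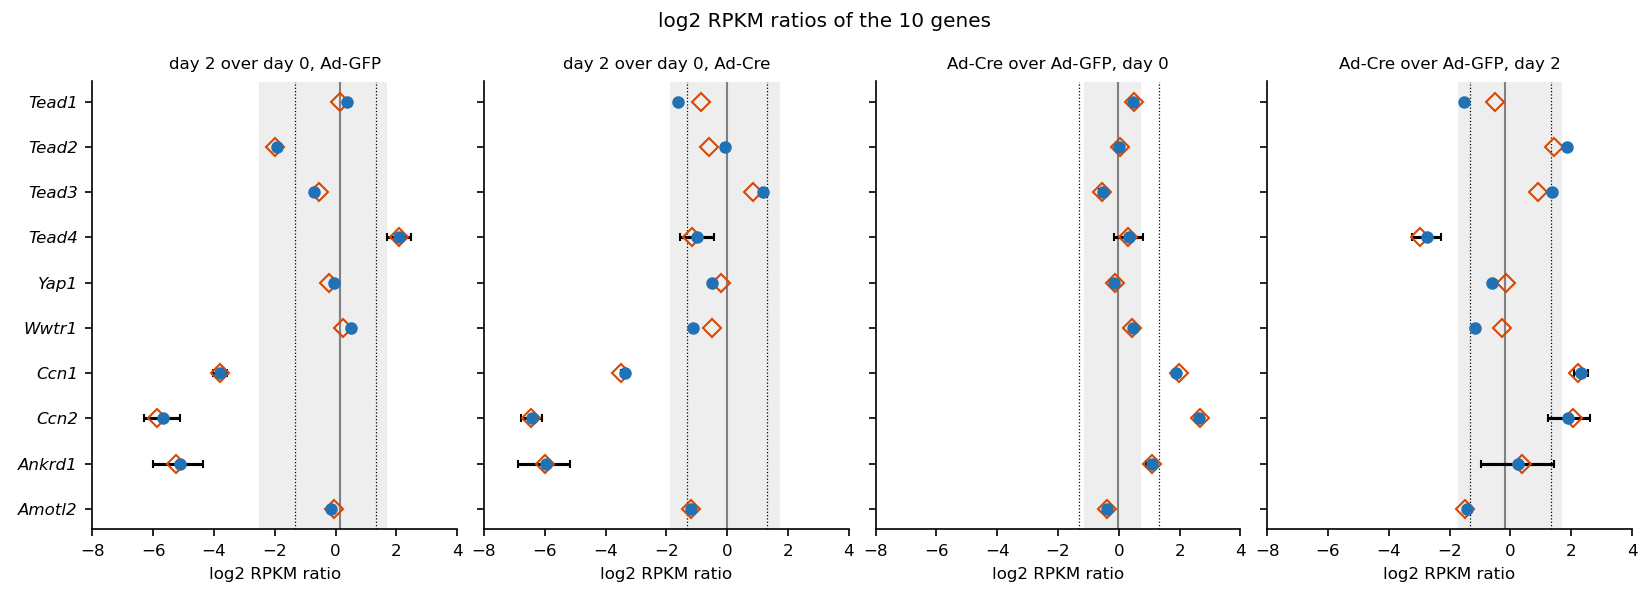
log2 RPKM ratios of the 10 genes in the 4 comparisons (filled circles, bars are 95% counting intervals), the same after the length and GC correction (open diamonds), the median of all expressed symbols (grey line), their 5th to 95th percentile (grey band) and the 2.5-fold cutoff (dotted). *Ccn1*, *Ccn2* and *Ankrd1* lie far to the left in both day 2 over day 0 panels, between −6.42 and −3.37, and circles and diamonds part most for *Tead1* in the panels that use Ad-Cre day 2.

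*Ccn1*, *Ccn2* and *Ankrd1*, the target genes most used as readouts of YAP and TAZ, fell steeply during adipogenesis in both kinds of cells, and on each day Ad-Cre cells held more *Ccn1* and *Ccn2* than Ad-GFP cells. *Ccn1* encodes a secreted matricellular protein that binds integrins. It had 1943 reads (55.7 RPKM) in Ad-GFP day 0, 187 (4.01) in Ad-GFP day 2, 8191 (207) in Ad-Cre day 0 and 733 (20.04) in Ad-Cre day 2. Both day 0 libraries were above both day 2 libraries, and within each day Ad-Cre was the higher. The fall with differentiation was 13.9-fold in Ad-GFP (log2 −3.80, interval −4.02 to −3.58) and 10.3-fold in Ad-Cre (−3.37, −3.48 to −3.26, and −3.50 corrected). The excess in Ad-Cre was 3.72-fold at day 0 (1.89, 1.82 to 1.97) and 5.00-fold at day 2 (2.32, 2.09 to 2.56, and 2.23 corrected).

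*Ccn2*, a matricellular growth factor known from fibrosis, had the largest fall of the 10 genes in both kinds of cells, with counting intervals that overlapped those of *Ankrd1*. It had 958 reads (23.2 RPKM) in Ad-GFP day 0, 25 (0.453) in Ad-GFP day 2, 6782 (145) in Ad-Cre day 0 and 73 (1.69) in Ad-Cre day 2. The order of the 4 libraries was that of *Ccn1*. The day 2 over day 0 log2 ratio was −5.68 (−6.31 to −5.11) in Ad-GFP and −6.42 (−6.78 to −6.09, and −6.47 corrected) in Ad-Cre. Ad-Cre was 6.24-fold higher at day 0 (2.64, 2.54 to 2.74) and 3.72-fold at day 2 (1.90, 1.22 to 2.61, so that the lower bound is inside the cutoff, and 2.06 corrected). A lincRNA, *Gm15270*, covers 22.9% of the exon bases of *Ccn2* on the opposite strand, and the strand of counting is not given in the sources used here, so reads of the 2 genes cannot be told apart there.

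*Ankrd1* encodes an ankyrin repeat protein known from stressed muscle. It had 366 reads (12.1 RPKM) in Ad-GFP day 0, 14 (0.345) in Ad-GFP day 2, 879 (25.5) in Ad-Cre day 0 and 13 (0.408) in Ad-Cre day 2. It fell 34.9-fold in Ad-GFP (log2 −5.13, −6.01 to −4.36) and 62.5-fold in Ad-Cre (−5.97, −6.88 to −5.18, and −5.98 corrected). At day 0 it was 2.12-fold higher in Ad-Cre (1.08, 0.90 to 1.26), short of the cutoff, and at day 2 the difference was not detectable at this depth (0.24, −0.96 to 1.44, and 0.39 corrected).

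*Amotl2*, an angiomotin that binds YAP and keeps it in the cytoplasm, and so both a target and a brake, did not follow the other target genes. It had 6905 reads (95.8 RPKM) in Ad-GFP day 0, 8362 (86.8) in Ad-GFP day 2, 6011 (73.5) in Ad-Cre day 0 and 2417 (31.98) in Ad-Cre day 2. Ad-Cre day 2 was the low library. The day 2 over day 0 log2 ratio was −0.14 (−0.19 to −0.10) in Ad-GFP and −1.20 (−1.27 to −1.13, and −1.20 corrected) in Ad-Cre, neither past the cutoff, and it was lower in Ad-Cre at day 2 by 2.71-fold (−1.44, −1.51 to −1.37). This last ratio was inside the cutoff with the length trend alone removed (−0.99) and with TMM factors, DESeq2 size factors or the sum of deposited counts as the scale (−1.28, −1.26 and −1.31), and −1.50 with length and GC removed.

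Smooth muscle markers also differed between the libraries. The sum of *Acta2*, *Tagln* and *Myh11* was 1089.8 RPKM in Ad-GFP day 0, 24.9 in Ad-GFP day 2, 3093 in Ad-Cre day 0 and 343 in Ad-Cre day 2. This sum, carried by *Acta2* and *Tagln*, had the order of libraries seen for *Ccn1* and *Ccn2*. *Acta2* and *Tagln* were above 1 RPKM in all 4 libraries and *Myh11* in the 2 Ad-Cre libraries alone, at 10.8 at day 0 and 1.45 at day 2, both above its 0.626 and 0.257 in Ad-GFP. Their part in the levels of the target genes was not tested.

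**Figure D3:**
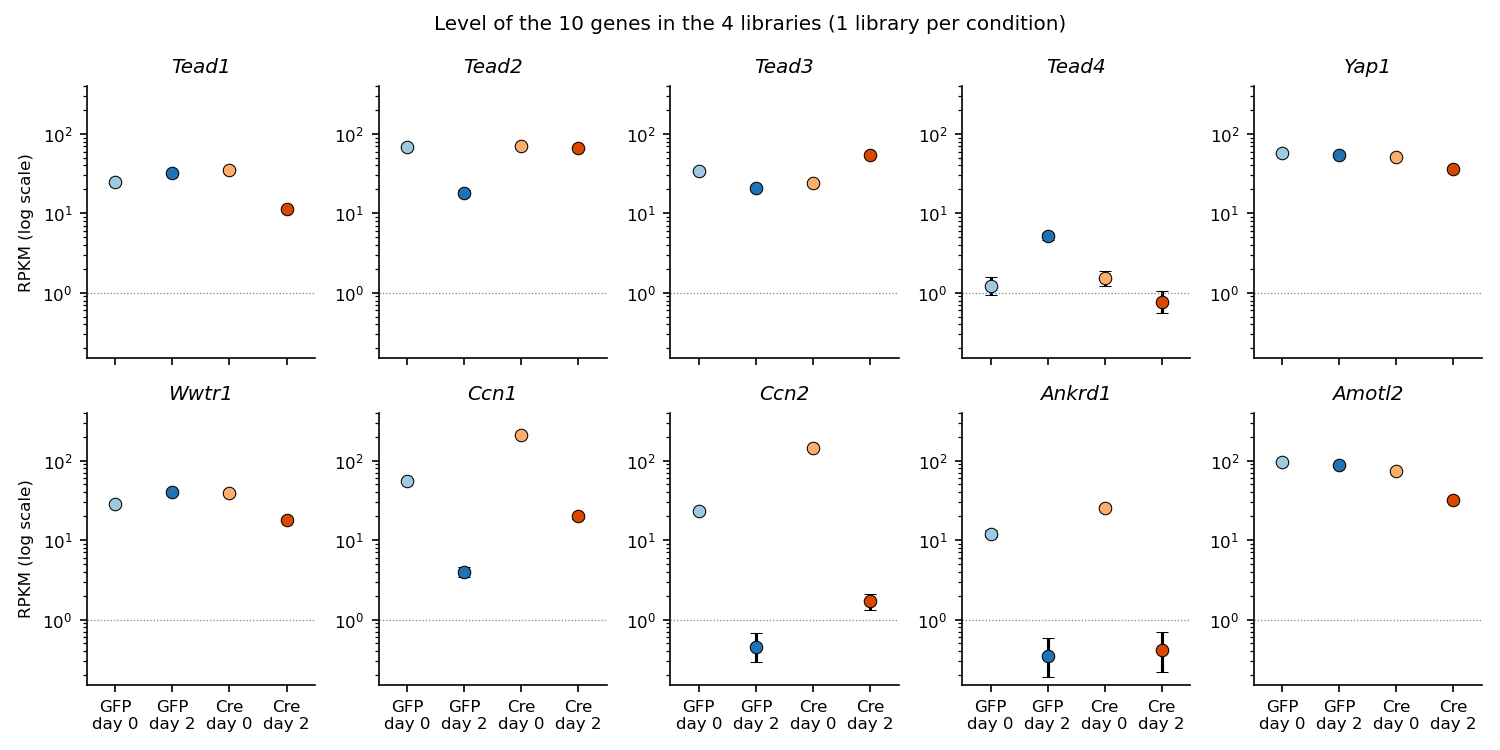
RPKM of the 10 genes (log axis) in the 4 libraries, 1 point per library, with exact Poisson 95% intervals of the read count as bars; the dotted line is 1 RPKM. *Ccn1*, *Ccn2* and *Ankrd1* drop between the days, to 0.345 RPKM at the lowest, while *Tead2* is low in Ad-GFP day 2 alone and *Tead4* high in Ad-GFP day 2 alone.

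The TEAD genes moved in different directions with differentiation, and their make-up at day 2 differed between Ad-GFP and Ad-Cre libraries. Their summed level was 129.7 RPKM in Ad-GFP day 0, 77.0 in Ad-GFP day 2, 130.0 in Ad-Cre day 0 and 133 in Ad-Cre day 2. Only the Ad-GFP day 2 library was below the other 3. *Tead2* was the most abundant TEAD in all libraries but that of Ad-GFP day 2, with 53.0%, 53.6% and 49.9% of the sum in Ad-GFP day 0, Ad-Cre day 0 and Ad-Cre day 2. In Ad-GFP day 2 *Tead1* led with 42.2%, and *Tead2* had 23.7%. These sums and shares are of deposited RPKM, without the correction. With the length and GC trends removed, 5 of the TEAD shares left their counting interval and 11 stayed inside. Ad-GFP day 0 was the reference of that removal, so the shares of this library, counted among the 11, could not move.

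*Tead2*, the TEAD known from early embryos and neural progenitors, had 2503 reads (68.8 RPKM) in Ad-GFP day 0, 887 (18.2) in Ad-GFP day 2, 2876 (69.7) in Ad-Cre day 0 and 2528 (66.3) in Ad-Cre day 2. It fell 3.77-fold in Ad-GFP cells (log2 −1.92, −2.03 to −1.80). Between the day 0 libraries its log2 ratio was 0.02, with a counting interval that held 0 (−0.06 to 0.10). From day 0 to day 2 in Ad-Cre it was −0.07 (−0.15 to 0.01) on deposited RPKM, −0.61 corrected, and 0.11 with the sum of deposited counts as the scale, none past the cutoff. At day 2 it was 3.63-fold higher in Ad-Cre (1.86, 1.75 to 1.97, and 1.44 corrected, still past the cutoff).

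*Tead4*, the TEAD needed for trophectoderm and also made in differentiating muscle, was the rarest of the 4. It had 65 reads (1.23 RPKM) in Ad-GFP day 0, 366 (5.18) in Ad-GFP day 2, 92 (1.53) in Ad-Cre day 0 and 43 (0.775) in Ad-Cre day 2. Ad-GFP day 2 was the one high library, and its counting interval, 4.66 to 5.73 RPKM, lay above those of the other 3. The day 0 libraries did not differ beyond counting error (log2 0.32, −0.15 to 0.80). *Tead4* rose 4.21-fold in Ad-GFP cells (2.07, 1.69 to 2.48), had a log2 ratio of −0.98 (−1.54 to −0.45, and −1.16 corrected) in Ad-Cre, and was 6.68-fold lower in Ad-Cre at day 2 (−2.74, −3.23 to −2.28, and −2.97 corrected). It held 6.73% of the TEAD sum in Ad-GFP day 2 and between 0.584% and 1.18% elsewhere.

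*Tead3*, known from placenta, had 1553 reads (34.5 RPKM) in Ad-GFP day 0, 1264 (21.0) in Ad-GFP day 2, 1218 (23.9) in Ad-Cre day 0 and 2561 (54.3) in Ad-Cre day 2. Ad-Cre day 2 was the highest library. The day 2 over day 0 log2 ratio was −0.72 (−0.82 to −0.61) in Ad-GFP and 1.19 (1.09 to 1.29, and 0.84 corrected) in Ad-Cre, neither past the cutoff. At day 2 it was 2.58-fold higher in Ad-Cre (1.37, 1.27 to 1.47, so that the lower bound is inside the cutoff), and 0.89 after the correction.

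*Tead1*, the most widely expressed TEAD, known from heart and muscle, had 4310 reads (25.2 RPKM) in Ad-GFP day 0, 7444 (32.5) in Ad-GFP day 2, 6787 (34.9) in Ad-Cre day 0 and 2052 (11.4) in Ad-Cre day 2. Ad-Cre day 2 was the low library. The day 2 over day 0 log2 ratio was 0.37 (0.32 to 0.42) in Ad-GFP, while *Tead1* fell 3.06-fold in Ad-Cre (−1.61, −1.68 to −1.54). At day 2 it was 2.85-fold lower in Ad-Cre (−1.51, −1.58 to −1.44). Its transcript is at the 98.5th percentile of length, and the correction took these last ratios to −0.85 and −0.52, inside the cutoff. Its share of the TEAD sum in Ad-Cre day 2 was 8.60%, and 17.7% with the trends removed, beside 42.2% and 37.5% in Ad-GFP day 2.

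**Figure D4:**
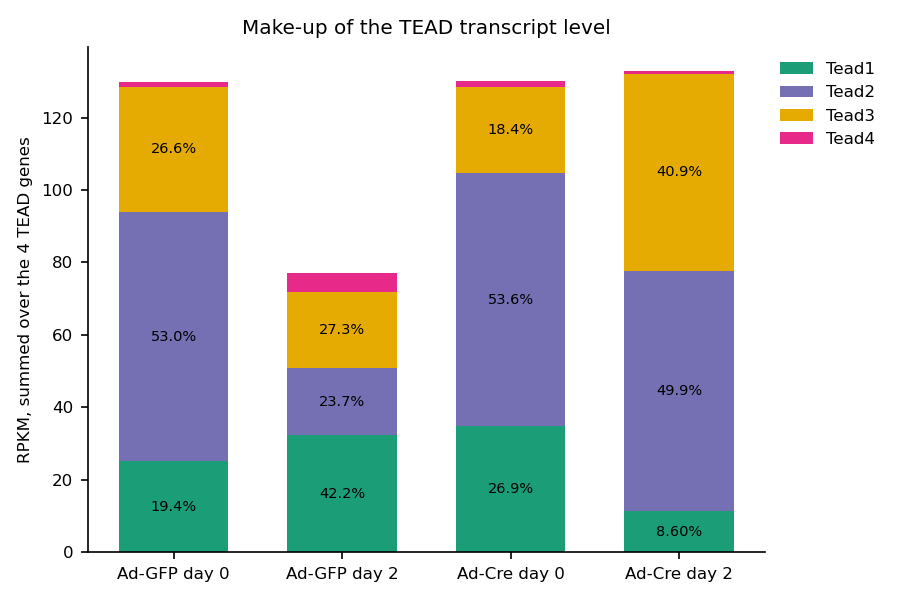
Summed RPKM of the 4 TEAD genes in each library (stacked bars from 0, 1 library each), with the percentage of the sum printed in each segment large enough to hold it. The Ad-GFP day 2 bar is the shortest, at 77.0 RPKM, and has the largest *Tead1* and *Tead4* shares, 42.2% and 6.73%.

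Neither coactivator passed the cutoff in any of the 4 comparisons. *Yap1*, the main effector of the Hippo pathway, had 4080 reads (56.9 RPKM) in Ad-GFP day 0, 5218 (54.5) in Ad-GFP day 2, 4173 (51.3) in Ad-Cre day 0 and 2711 (36.1) in Ad-Cre day 2. Its day 2 over day 0 log2 ratio was −0.06 in Ad-GFP and −0.51 (−0.58 to −0.44, and −0.22 corrected) in Ad-Cre. At day 2 Ad-Cre over Ad-GFP stood at −0.59 (−0.66 to −0.53, and −0.16 corrected).

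*Wwtr1* had 2329 reads (28.5 RPKM) in Ad-GFP day 0, 4418 (40.5) in Ad-GFP day 2, 3639 (39.3) in Ad-Cre day 0 and 1544 (18.0) in Ad-Cre day 2. The order was Ad-GFP day 2, Ad-Cre day 0, Ad-GFP day 0 and Ad-Cre day 2. Its day 2 over day 0 log2 ratio was 0.51 (0.43 to 0.58) in Ad-GFP and −1.12 (−1.21 to −1.04, and −0.50 corrected) in Ad-Cre, and Ad-Cre over Ad-GFP stood at 0.46 (0.39 to 0.54) on day 0 and −1.17 (−1.25 to −1.08, and −0.28 corrected) on day 2. The summed RPKM of both coactivators, as deposited and without the correction, was 85.4 and 94.9 in Ad-GFP at day 0 and day 2, and 90.6 and 54.1 in Ad-Cre, with *Yap1* the larger share, from 56.6% to 66.7%, in every library. In Ad-GFP, log2 ratios of −3.80 for *Ccn1* and −5.68 for *Ccn2* with differentiation stood beside −0.06 for *Yap1* and 0.51 for *Wwtr1*. In Ad-Cre, −3.37 and −6.42 stood beside −0.51 and −1.12 (−3.50, −6.47, −0.22 and −0.50 corrected). A link between these levels was not tested, and RNA does not show where the YAP and TAZ proteins are.

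Other genes of the pathway were taken from 3 lists of 18 genes, chosen with earlier results of these data known. They hold 52 distinct genes, since *Lats2* and *Ptpn14* are in 2 lists. The Hippo kinases and adaptors, which restrain YAP and TAZ, had 17 expressed members. In Ad-GFP cells none of them rose or fell past the cutoff with differentiation, beside 8.38% and 12.7% of all expressed symbols. The median log2 ratio was 0.19 beside 0.15 for all expressed symbols. In Ad-Cre cells none rose and 3 fell (2 corrected), beside 8.68% and 10.0%, with a median of −0.85 (−0.59 corrected) beside −0.01. At day 0 none of the 17 was higher or lower past the cutoff in Ad-Cre than in Ad-GFP, beside 1.27% and 4.12%. At day 2 none was higher in Ad-Cre and 4 were lower, beside 8.16% and 10.1%, with a median of −0.90 beside −0.16. After the correction 1 was higher and 2 were lower, with a median of −0.13. *Lats2*, a kinase of YAP and TAZ and itself a target of them, fell in Ad-Cre from 33.5 to 5.69 RPKM (log2 −2.55, and −2.20 corrected), and was at 18.4 and 8.57 in Ad-GFP, inside the cutoff. *Lats1* fell from 13.6 to 5.14 RPKM in Ad-Cre (log2 −1.40, and −0.71 corrected). *Mob1a*, which activates LATS kinases, was at 28.1, 33.0, 28.2 and 7.28 RPKM in Ad-GFP day 0, Ad-GFP day 2, Ad-Cre day 0 and Ad-Cre day 2, and was lower in Ad-Cre at day 2 (log2 −2.18, and −1.96 corrected), as was its paralog *Mob1b* (−1.47, and −0.82 corrected). The scaffold *Wwc1* (KIBRA) was also lower there (−1.64, and −1.80 corrected). The kinase *Tnik*, under 1 RPKM in both Ad-GFP libraries, was not among the 17 expressed and so not counted. It was at 2.64 RPKM in Ad-Cre day 0 and 0.694 in Ad-Cre day 2 (log2 −1.93, and −1.17 corrected). Beside Ad-GFP, *Tnik* was past the cutoff and higher in Ad-Cre, 4.36-fold at day 0 (log2 2.12) and 4.93-fold at day 2 (2.30, and 3.26 corrected).

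The other partners and inhibitors had 15 expressed members. In Ad-GFP cells none rose and 4 fell, beside 8.38% and 12.7% of all expressed symbols, with a median log2 ratio of −0.06 beside 0.15. In Ad-Cre cells none rose and 5 fell (3 corrected), beside 8.68% and 10.0%, with a median of −0.27 (−0.34 corrected) beside −0.01. Ad-Cre was lower for 1 of the 15 at day 0 and higher for none, beside 4.12% and 1.27%, with a median of 0.12 beside −0.02. At day 2, 1 was higher and 2 were lower (2 and 1 corrected), beside 8.16% and 10.1%, with a median of −0.13 (0.20 corrected) beside −0.16. *Vgll3*, which binds TEADs in place of YAP, fell in both, by 3.04 log2 units in Ad-GFP, from 17.2 to 2.09 RPKM, and by 2.70 in Ad-Cre, from 31.9 to 4.93 (log2 −2.37 corrected). The atypical cadherin *Fat4* fell from 13.4 to 1.63 RPKM in Ad-GFP and from 29.4 to 6.53 in Ad-Cre (log2 −3.04 and −2.17, the last −1.56 corrected), and was higher in Ad-Cre at day 2 (log2 2.01, and 2.74 corrected). *Ajuba*, a LIM protein that binds LATS, fell in both as well (log2 −2.28 and −2.52, the last −2.56 corrected). *Amot*, the founding angiomotin, fell from 29.3 to 5.60 RPKM in Ad-GFP (log2 −2.39) and from 9.90 to 2.96 in Ad-Cre (−1.74, but −1.04 corrected, inside the cutoff), and was lower in Ad-Cre at day 0 (−1.56). *Ptpn14*, a phosphatase that binds YAP, was lower in Ad-Cre at day 2 (−1.67, and −1.10 corrected). *Dchs1*, the ligand of FAT4, stayed below 1 RPKM in every library, with 97, 25, 5 and 67 reads in Ad-GFP day 0, Ad-GFP day 2, Ad-Cre day 0 and Ad-Cre day 2.

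The other target genes had 17 expressed members. In Ad-GFP cells 3 rose and 6 fell, beside 8.38% and 12.7% of all expressed symbols, with a median log2 ratio of −0.63 beside 0.15. In Ad-Cre cells 1 rose and 9 fell (6 corrected), beside 8.68% and 10.0%, with a median of −1.38 (−0.99 corrected) beside −0.01. *Myof*, a membrane repair protein, fell from 32.9 to 1.99 RPKM in Ad-GFP and from 23.0 to 1.27 in Ad-Cre (log2 −4.05 and −4.18, the last −3.57 corrected). The kinase *Nuak2* fell from 292 to 18 reads in Ad-GFP and from 327 to 17 in Ad-Cre (log2 −4.44 and −4.15, the last −4.10 corrected), and the receptor tyrosine kinase *Axl* from 109.6 to 17.4 RPKM in Ad-GFP and from 86.7 to 16.7 in Ad-Cre (log2 −2.66 and −2.38, the last −2.10 corrected). These 3 genes showed Ad-Cre over Ad-GFP log2 ratios between −0.65 and 0.27 at both days (0.07 to 0.37 corrected at day 2), beside 1.89 to 2.64 for *Ccn1* and *Ccn2*. Between Ad-Cre and Ad-GFP, 1 of the 17 was higher and 3 were lower at day 0 (1 and 2 corrected), beside 1.27% and 4.12%, with a median of −0.01 beside −0.02. At day 2 none was higher and 6 were lower (1 and 5 corrected), beside 8.16% and 10.1%, with a median of −0.54 (−0.19 corrected) beside −0.16. *Igfbp3*, a secreted binding protein of insulin-like growth factors, was among the lower at both days (log2 −3.97 and −3.40, the last −3.32 corrected), although it rose with differentiation in both, from 1.64 to 20.9 RPKM in Ad-GFP and from 0.105 to 1.98 in Ad-Cre (log2 3.67 and 4.23, the last 4.11 corrected). It had only 5 reads in Ad-Cre day 0. The counting interval was 2.96 to 5.89 for its rise in Ad-Cre and −5.64 to −2.68 for its day 0 ratio. The matrix protein *Ccdc80* fell from 8.43 to 2.18 RPKM in Ad-GFP and from 10.8 to 0.471 in Ad-Cre (log2 −1.95 and −4.52, the last −4.22 corrected). *Dock5*, an exchange factor for RAC, was lower in Ad-Cre at day 2 (log2 −2.65, and −1.86 corrected). At day 0 its ratio lay at the cutoff (−1.33, −1.49 to −1.18, and −1.28 corrected).

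**Figure D5:**
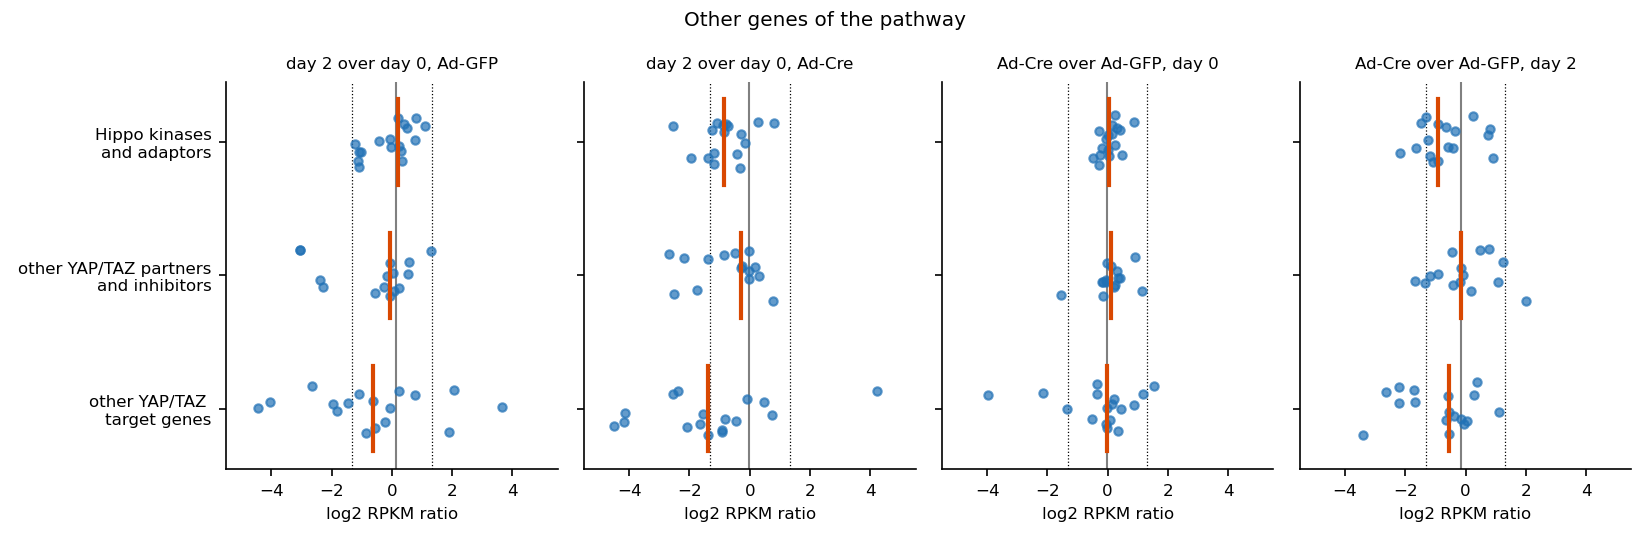
log2 RPKM ratios of the expressed genes of the 3 lists in the 4 comparisons (points, spread vertically at random within a list), with each list's median (orange) and the median of all expressed symbols (grey); dotted lines mark 2.5-fold. The other target genes spread widest, from −4.52 to 4.23 with differentiation in Ad-Cre, and the Hippo kinases and adaptors cluster near 0 at day 0. The point at 4.23 is *Igfbp3*, which had 5 reads in Ad-Cre day 0.

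The expressed gene most like each of the 10 across the 4 libraries was the one at the smallest Euclidean distance between log2 RPKM values centred over the libraries, among 7999 symbols with at least 1000 reads. With 4 points this describes the order and size of 4 levels. *Ccn2* and *Ankrd1* both had *Thbs1* as their nearest, at 1.12 and 1.16 log2 units, the largest distances of the 10 genes. Like *Ccn2*, *Thbs1* encodes a matricellular protein. *Thbs1* was at 134 and 5.35 RPKM in Ad-GFP at day 0 and day 2, and at 595 and 13.1 in Ad-Cre. The nearest of *Ccn1* was *Samd9l* (0.26) and that of *Tead4* was *Pank3* (0.27). For the remaining 6 genes the nearest lay within 0.11 and were *Osbpl8* for *Tead1*, *Efemp2* for *Tead2*, *Unc93b1* for *Tead3*, *Trim8* for *Yap1*, *Utp20* for *Wwtr1* and *Erlin2* for *Amotl2*.

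On NCBI37/mm9, the GENCODE vM1 annotation places *Tead1* at chr7:119822832-120050319 (plus strand), *Tead2* at chr7:52471123-52489005 (plus), *Tead3* at chr17:28468616-28487750 (minus) and *Tead4* at chr6:128174306-128250841 (minus). *Yap1* lies at chr9:7931999-8004596 (minus) and *Wwtr1* at chr3:57259571-57379832 (minus). *Ccn1* lies at chr3:145309935-145312949 (minus), *Ccn2* at chr10:24315248-24318489 (plus), *Ankrd1* at chr19:36186455-36194334 (minus) and *Amotl2* at chr9:102619002-102635748 (plus). Reads were counted over exons, UTRs included. Of the windows of 50 bases of these transcripts, at most 1.19% (*Amotl2*) matched elsewhere in the genome with up to 2 mismatches, so sharing of reads between TEAD paralogs could touch few of them. On the opposite strand, short exon overlaps were also annotated for *Yap1* (1.25% of exon bases) and *Tead2* (0.0857%). On its own strand, 34.2% of the exon bases of *Tead1* are shared with a processed transcript annotated under the same name.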

How the data were processed

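RNA-Seq of the 4 conditions was analysed, with 1 library each, grouped by the sample labels. The authors aligned 50-base reads to NCBI37/mm9 with the Illumina Analysis Pipeline and collected reads on RefSeq exons. The authors deposited a whole-number read count per transcript without normalization, and an RPKM, the count per kilobase of exon scaled by mapped reads. How reads with several matches and strand were treated is not given in the sources used here. Totals of deposited counts ran from 15831915 to 22099995, and at such depth a gene with under 100 reads has wide counting intervals.

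Symbols came from a RefSeq gene table of GRCm38.p6, used for names alone, and named 97.8% of 29082 transcripts. One transcript per symbol, that with most reads, was kept. log2 ratios are of the deposited RPKM without pseudocount, and a gene was called past 2.5-fold among symbols with RPKM above 1 in Ad-GFP at day 0 or day 2, after the study's methods. Exact binomial 95% intervals were computed with scipy 1.17.1. No p-value was computed. GC content, found for 94.3% of expressed symbols, coordinates and overlaps came from GENCODE vM1, and promoter windows from RefSeq GRCm38.p6. Windows of 50 bases were matched with blastn 2.17.0. The length and GC correction subtracted medians of 20 bins of each. TMM factors came from edgeR 4.0.16 and size factors from DESeq2 1.42.0 in R 4.3.3, without a test. Tables and figures were made in Python 3.11.15 (pandas 2.3.3, numpy 2.4.6, matplotlib 3.10.9). The computation of ratios and intervals was run on simulated counts with counting error alone, which checks the computation and cannot show spread between cultures.

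Named genes are the 10 members, *Kmt2d*, the nearest gene to each member, and from each pathway list up to 6 genes past 2.5-fold in a comparison, with at least 100 reads over the libraries, those with the largest absolute log2 ratio. The 10 genes, the pathway lists and the markers were chosen with earlier results of these data known. Markers and overlapping genes are named beside the results they touch. Alternatives were TMM and DESeq2 scaling, the sum of deposited counts, a pseudocount of 1 RPKM, other expression filters, 2-fold and 4-fold cutoffs, the interval bound, every transcript, and removal of the length trend or, chosen after the data were seen, of length and GC trends.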

Additional observations from a re-analysis of the deposited data

Results flagged for a closer look

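Among the 10 genes, 4 went opposite ways from day 0 to day 2 in Ad-GFP and Ad-Cre cells, with both counting intervals away from 0. The share of all expressed symbols that did so was not counted, so the 4 cannot be read as a trait of these genes. The difference was not tested, since each condition has 1 library. The log2 ratio of the 2 inductions, Ad-Cre over Ad-GFP, was −1.98 (counting interval −2.07 to −1.89) for *Tead1*, 1.90 (1.76 to 2.05) for *Tead3*, −3.06 (−3.70 to −2.41) for *Tead4* and −1.63 (−1.74 to −1.52) for *Wwtr1*. The opposite signs were the same under TMM and DESeq2 scaling, the sum of deposited counts, and after removal of the length trend or of length and GC trends. The pseudocount cannot change a sign. With the sum of deposited counts *Tead2* joined them, at −1.87 in Ad-GFP and 0.11 in Ad-Cre. With length and GC trends removed, the log2 ratios of day 2 to day 0 in Ad-GFP and Ad-Cre were 0.13 and −0.85 for *Tead1*, −0.55 and 0.84 for *Tead3*, 2.08 and −1.16 for *Tead4*, and 0.24 and −0.50 for *Wwtr1*.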

How the results depend on the processing

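No condition has a replicate, so spread between cultures is unknown, no library could be left out, and every interval covers counting error alone. A fit of infection and day without their interaction would have taken that interaction as error, and was not run. Under 12 alternatives, 95 of 102 member counts stayed within 1.5 times the value reported. The other expression filters could not change a count of the 10 genes, so the 8 counts under each were fixed in advance. Among the 102 are also counts of genes with opposite signs in Ad-GFP and Ad-Cre, which are not calls past a cutoff. From day 0 to day 2 in Ad-Cre, 1 of the 10 genes in place of 0 was called higher with the sum of deposited counts and with a 2-fold cutoff. In Ad-Cre over Ad-GFP, a 4-fold cutoff left 1 of 2 higher at day 0, and 1 of 4 higher and 1 of 3 lower at day 2. At day 2, 2 were lower in place of 3 with TMM factors, DESeq2 size factors and the sum of deposited counts, which took out *Amotl2*, 2 were higher where the interval bound had to pass the cutoff, and 1 was lower with the length trend removed. Of 280 single log2 ratios of the 10 genes under alternatives, 200 stayed within the counting interval, and no ratio past the cutoff changed sign. The length correction and the length and GC correction moved 17 of 40 each, and with them *Tead1* left the calls that use Ad-Cre day 2.

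Scaling moved the median log2 ratio of all expressed symbols at day 2, Ad-Cre over Ad-GFP, from −0.16 to −0.01 with TMM and 0.02 with DESeq2 factors, and that of day 2 over day 0 in Ad-GFP from 0.15 to 0.05 and 0.01. Calls over all symbols at day 2 then went from 940 higher and 1162 lower (44.7% higher) to 1157 and 861 (57.3%) with TMM, 1214 and 816 (59.8%) with DESeq2 factors and 1126 and 908 (55.4%) with the sum of counts. For day 2 over day 0 in Ad-Cre, the sum of counts took 1000 and 1156 (46.4%) to 1320 and 917 (59.0%). In Ad-Cre over Ad-GFP at day 0, 146 symbols were higher and 475 lower as reported, 278 and 720 past 2-fold, 55 and 255 past 4-fold, 69 and 265 with the interval bound, 83 and 203 with the pseudocount, and 1205 and 1750 without a filter, where symbols of few reads enter. At day 2 these were 1468 and 2064, 395 and 358, 579 and 680, 586 and 560, and 2977 and 2217. For day 2 over day 0 they were 1667 and 1842, 428 and 890, 614 and 1130, 607 and 975, and 2147 and 3185 in Ad-GFP, beside 967 and 1462, and 1678 and 1861, 420 and 504, 577 and 762, 592 and 667, and 2843 and 2427 in Ad-Cre. The reported filter leaves out symbols above 1 RPKM in Ad-Cre alone. With RPKM above 1 in any library, Ad-Cre over Ad-GFP gave 247 higher and 495 lower at day 0, and 1137 and 1171 at day 2.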
